A study of Homo sapiens with 16 samples.

Results

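O-GlcNAc cycling and the hexosamine pathway were followed through 10 genes: OGT and OGA, which put O-GlcNAc on proteins and take it off; GFPT1, GFPT2, GNPNAT1, PGM3 and UAP1, which make the sugar donor UDP-GlcNAc; NAGK and AMDHD2, which act on GlcNAc and its phosphate; and EOGT, an O-GlcNAc transferase of the secretory pathway. The genes were chosen by their known roles, but with earlier results of these data known. Each was found once among the 57736 genes of the count table, and all 10 were among the 24249 genes with enough reads to be tested. The data are RNA-seq libraries of H9 cells, a human embryonic stem cell line, collected undifferentiated (D0) and on days 12, 30 and 70 of differentiation towards cortical neurons (D12, D30 and D70). Control cells received the solvent DMSO, and TMG-treated cells received 40 µM of Thiamet-G (TMG), an inhibitor of the OGA enzyme, before and throughout differentiation. Each of the 8 groups held 2 biological replicates, all from the same cell line, and libraries were assigned by their titles because the treatment given elsewhere in the labels contradicts the title for 8 of the 16. The design asks how the genes change as stem cells become neural, and how they differ when removal of O-GlcNAc from proteins is blocked.

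In this pathway fructose 6-phosphate and glutamine are joined by GFPT1 or GFPT2, the rate-limiting step, GNPNAT1 adds the acetyl group, PGM3 moves the phosphate and UAP1 couples the sugar to UTP. OGT then transfers GlcNAc from UDP-GlcNAc to serine and threonine residues of nuclear and cytoplasmic proteins, and OGA removes it. Cells are known to keep the modification within bounds by adjusting both enzymes, and OGT is needed for embryonic stem cells to survive. TMG acts on the OGA protein, so the RNA level of OGA is no check that the drug worked.

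Library totals lay between 10334908 and 19836878 counts. OGT had 4617 to 12213 counts in a library and OGA 3257 to 8154, and the smallest counts were 86 for AMDHD2 and 93 for EOGT. Levels are counts scaled to library size (CPM, with TMM factors). Some cultures differed in makeup before any gene is considered. The summed level of 7 mesenchyme markers, collagen genes among them, lay between 165.7 and 185 CPM on D0, was 4513 and 5282 CPM in D30 controls, and was 5663 and 29558 CPM in the D30 TMG-treated libraries. On D70 it was 7590 and 45197 CPM in controls, against 3834 and 59001 CPM with TMG. The summed pigment epithelium markers on D70 were at 322 and 1824 CPM in controls and 289 and 7.21 CPM with TMG, and the summed choroid plexus markers at 9987 and 213 CPM against 3003 and 3.98 CPM. TMG replicate 2 of D70 also had a summed neuron marker level of 126 CPM, with NEUROD6 at 0 counts. The other D70 libraries had neuron marker sums of 487 to 932 CPM. PAX6 in TMG replicate 2 was at 2.5 CPM, but the summed neural progenitor markers (PAX6, NES, SOX1 and VIM) were at 1686 CPM there. That sum was 4578 CPM in TMG replicate 1 of D70 and 3513 and 2224 CPM in the D70 controls. On D30 the summed neuron markers were at 302 and 422 CPM in controls and 488 and 678 CPM with TMG, and 3 cycling cell markers at 205 and 192 CPM against 255 and 489 CPM. The summed stem cell markers overlapped on D30, at 50.3 and 28.3 CPM in controls and 60.6 and 24.0 CPM with TMG. Of these 4 markers, POU5F1 and NANOG were higher in both TMG-treated libraries than in both controls, while LIN28A and DPPA4 overlapped. The part of these differences in the results was not tested, and values given without a library are descriptions. In bulk RNA, fewer cells of a kind and less RNA per cell cannot be told apart.

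**Figure D1:**
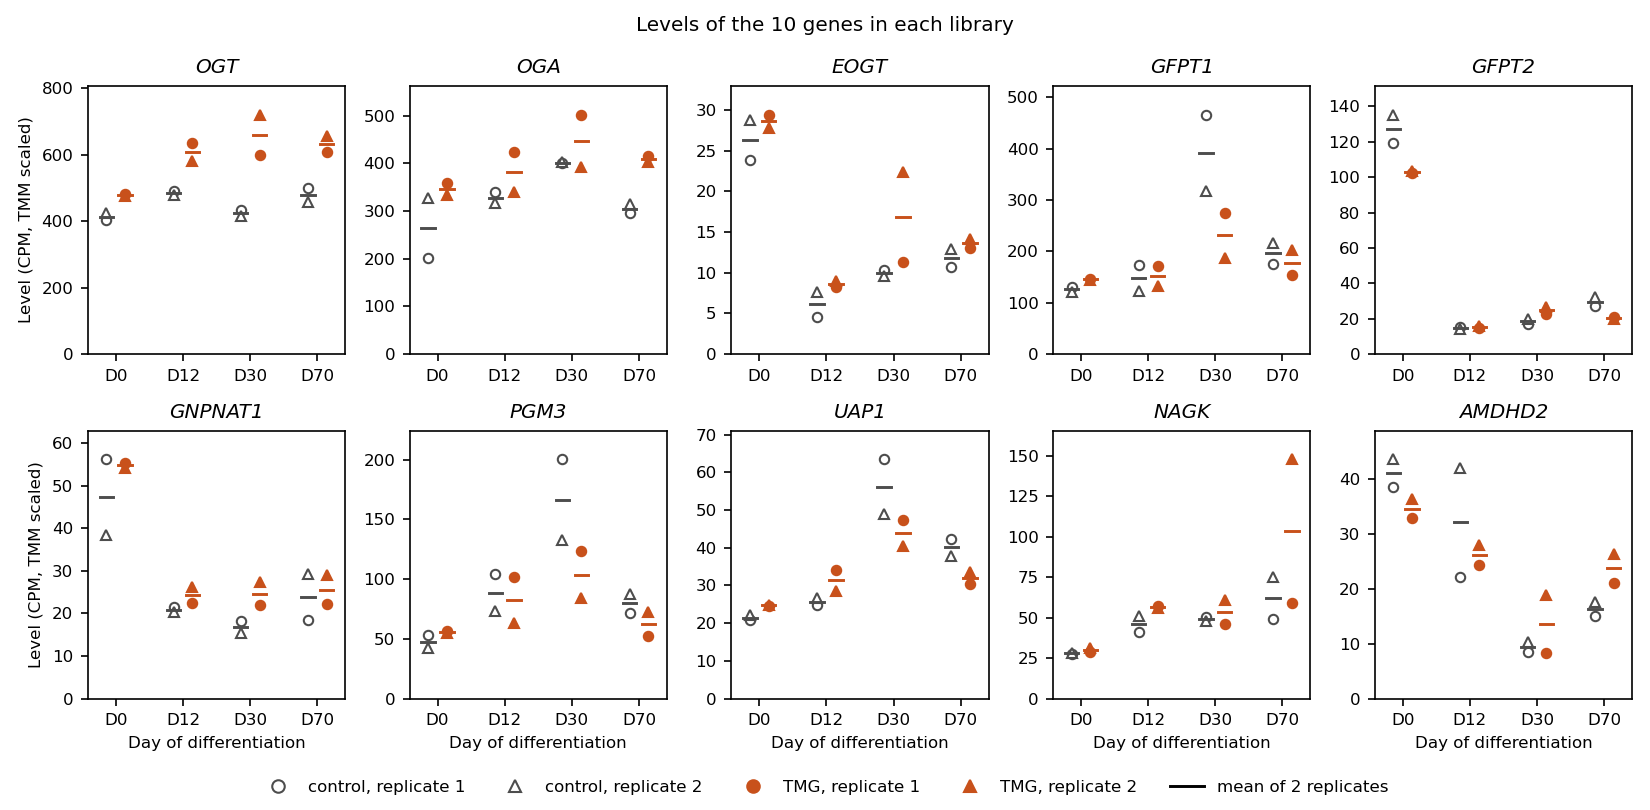
Level of each of the 10 genes in every library (CPM, vertical axes from 0), by day of differentiation; open symbols are control and filled symbols TMG-treated libraries, and bars are means of 2 replicates. OGT lies higher in both TMG-treated libraries than in both controls on every day, while GFPT2 drops from 119 and 135 CPM in D0 controls to 15 and 14.2 CPM on D12.

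OGT, the only enzyme that modifies nuclear and cytoplasmic proteins with O-GlcNAc, was higher in TMG-treated cells on every day sampled. On D0 it was at 403 and 424 CPM in controls and 481 and 476 CPM with TMG. On D12 the controls had 489.6 and 479 CPM and the TMG-treated libraries 635 and 582 CPM. The D30 controls had 434 and 414 CPM, against 598 and 719.8 CPM with TMG. On D70 the levels were 501 and 457 CPM in controls and 608 and 656 CPM with TMG. The groups did not overlap on any day, and OGT was the only member with both TMG-treated libraries above both controls on every day. Both TMG-treated libraries lay above both controls on all 4 days for 107 of the 24249 genes tested, or 0.441%.

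The log2 fold change of OGT was 0.21, 0.33, 0.64 and 0.40 in order of day, each with an SE of 0.15. In edgeR's quasi-likelihood test the adjusted p over all genes was 1 on both D0 and D12, 0.194 on D30 and 0.894 on D70, so no single day passed a false discovery rate of 5%. Averaged over the 4 days, the log2 fold change was 0.39 ± 0.08, a level 1.31-fold higher with TMG. Its unadjusted p of 0.000342 ranked 61 of 24249, and its adjusted p in edgeR was 0.133. Only 1 gene passed for this average in edgeR, or 0.00412% of those tested. DESeq2 on the same libraries called OGT on D30 with an adjusted p of 0.0011 and for the average with an adjusted p of 5.28e-06, where it called 3.04% and 2.41% of the genes it gave an adjusted p. With any 1 of the 16 libraries left out, the average log2 fold change ran from 0.36 to 0.43. Without TMG replicate 2, the library rich in mesenchyme markers, the D30 log2 fold change was 0.49, and the average was 0.38 without the D70 TMG library low in neuron markers. The other D30 TMG-treated library also had more neuron and cycling marker RNA than both D30 controls. The part of culture makeup in the OGT difference was not tested.

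OGA, the target of TMG, encodes the enzyme that removes O-GlcNAc, and the mean of its RNA was higher under the inhibitor on every day. It was at 201 and 327 CPM in D0 controls and at 358 and 335 CPM with TMG. On D12 it was at 339.8 and 316 CPM in controls and 424 and 339.8 CPM with TMG, and the D30 values were 399.7 and 403 CPM against 502 and 393 CPM. The D70 controls had 296 and 314 CPM and the TMG-treated libraries 416 and 403 CPM. The groups were apart on D0 and D70 and overlapped on D12 and D30. The log2 fold change was 0.39, 0.22, 0.16 and 0.43 in order of day, with SEs of 0.22 to 0.23, and 0.30 ± 0.11 averaged over days, where the unadjusted p was 0.0226 and the edgeR adjusted p 0.338. The D0 value was 0.11 without control replicate 1 and 0.79 without control replicate 2, and the D12 value ran from 0.05 to 0.36 depending on which TMG-treated library was left out. On D30 the sign depended on 1 library, since without TMG replicate 1 the value was -0.03.

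The balance of the cycling pair was read as the log2 ratio of OGT to OGA counts within each library, as a description without a test. It was 1.00 and 0.38 in D0 controls and 0.43 and 0.51 with TMG. On D12 it was 0.53 and 0.60 against 0.58 and 0.78. The D30 controls had 0.12 and 0.04 and the TMG-treated libraries 0.25 and 0.87, and D70 had 0.76 and 0.54 against 0.55 and 0.70. D30 was the only day on which both TMG-treated ratios lay above both control ratios, with OGA at its highest control level and OGT near its D0 level.

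EOGT, which adds O-GlcNAc to secreted and membrane proteins such as Notch receptors, had the lowest level per length of the 10 genes in control cells on every day, at 1.38 to 5.93 CPM per kb of the canonical transcript. It was at 23.9 and 28.7 CPM in D0 controls and 29.4 and 27.8 CPM with TMG. The D12 libraries had 4.57 and 7.66 CPM in controls and 8.21 and 9.01 CPM with TMG, and the D30 libraries 10.3 and 9.58 CPM against 11.4 and 22.3 CPM. On D70 the controls had 10.7 and 13 CPM, and the TMG-treated libraries 13 and 14.2 CPM. The groups were apart on D12, D30 and D70, narrowly so on D70. On D30 the log2 fold change was 0.76 ± 0.32 with an edgeR adjusted p of 0.39, and it was 0.19 without TMG replicate 2.

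**Figure D2:**
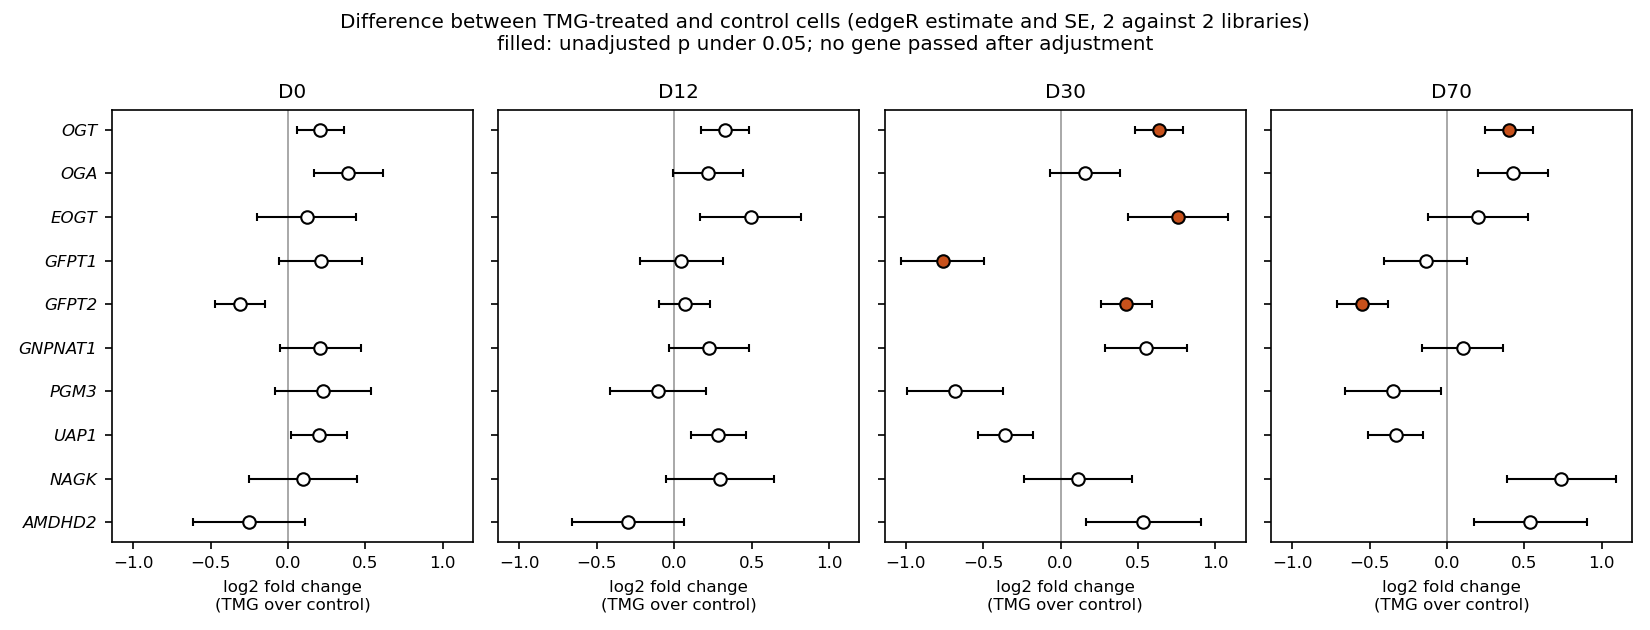
Log2 fold change of TMG-treated over control cells for the 10 genes on each day (points, horizontal axis), 2 against 2 libraries. Bars are SEs derived from edgeR's F-test, which was fitted to all 16 libraries. Filled points have an unadjusted p under 0.05. OGT lies right of 0 on all 4 days, and on D30 GFPT1, PGM3 and UAP1 lie left of it; none of the 10 genes passed after adjustment over all genes.

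Without a replicate block, 0 of the 10 genes passed edgeR's test of TMG against control at a false discovery rate of 5% on any day. Of all genes tested, 0% did. At an unadjusted p under 0.05 there were 0 members on each of D0 and D12. D30 had 4 (OGT, EOGT and GFPT2 higher, GFPT1 lower) and D70 had 2 (OGT higher, GFPT2 lower). The share of all genes at that level was 1.26%, 2.48%, 12% and 5.49% in order of day. For the average over days it was 3 members (OGT, OGA and EOGT, all higher), beside 11.8% of all genes. DESeq2 called 1 member on D30, OGT, and 0 on the other days, beside 0.0206%, 0.064%, 3.04% and 0.296% of the genes it gave an adjusted p, in order of day. The members' groups did not overlap for 8, 5, 7 and 6 members in order of day, beside 36.6%, 34.3%, 44.1% and 22.1% of all genes. The median log2 fold change of the members was 0.21, 0.22, 0.29 and 0.15, while that of all genes stayed within 0.02 of 0. The members did not share a direction. The 5 genes that make UDP-GlcNAc had medians of 0.21, 0.07, -0.36 and -0.33. For OGT and OGA the medians were 0.30, 0.27, 0.40 and 0.41, and for NAGK and AMDHD2 they were -0.07, -0.002, 0.32 and 0.64.

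GFPT1, the more widely expressed of the 2 rate-limiting enzymes, had its highest level in D30 controls and a lower one there under TMG. It was at 130.4 and 121 CPM in D0 controls and 147 and 144 CPM with TMG, and at 173 and 122 CPM against 171 and 133 CPM on D12. The D30 controls had 466 and 317 CPM and the TMG-treated libraries 274 and 187 CPM. On D70 it was at 175 and 216 CPM in controls and 154 and 202 CPM with TMG. The D30 groups were apart, with a log2 fold change of -0.76 ± 0.27, an unadjusted p of 0.0166 and an edgeR adjusted p of 0.307. With a replicate block GFPT1 passed in edgeR on D30, but the labels do not say what a replicate number shares. The log2 fold change was -0.51 without the D30 library rich in mesenchyme markers, and the smallest difference was -0.46, without control replicate 1. The part of culture makeup in the GFPT1 difference was not tested.

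PGM3 and UAP1, which carry out the phosphate transfer and the last step to UDP-GlcNAc, had the same order on D30. PGM3 was at 200.3 and 133 CPM in D30 controls and 123 and 84.0 CPM with TMG, a log2 fold change of -0.68 ± 0.31 with an edgeR adjusted p of 0.419. UAP1 was at 63.4 and 48.9 CPM in D30 controls and 47.2 and 40.4 CPM with TMG, a log2 fold change of -0.36 ± 0.18 with an edgeR adjusted p of 0.455. Without control replicate 1 of D30 the values were -0.36 for PGM3 and -0.16 for UAP1. Both TMG-treated libraries lay below both controls for all 3 genes on that day, which held for 21% of all genes. On D0 the same genes had the opposite order, with both TMG-treated libraries above both controls for GFPT1, PGM3 and UAP1, an order seen in 19.7% of all genes. The change of the TMG effect from D0 to D30 was -0.97 ± 0.38 for GFPT1, -0.56 ± 0.25 for UAP1 and -0.91 ± 0.44 for PGM3, with unadjusted p of 0.0267, 0.0486 and 0.0624 and an edgeR adjusted p of 0.976 for each.

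On the other days PGM3 and UAP1 differed less between the arms. PGM3 was at 52.8 and 42.3 CPM in D0 controls and 56.8 and 54.7 CPM with TMG, at 104 and 73.0 CPM against 102 and 63.1 CPM on D12, and at 71.8 and 87.8 CPM against 52.6 and 72.7 CPM on D70. UAP1 was at 20.9 and 22.0 CPM in D0 controls and 24.5 and 24.9 CPM with TMG, at 24.9 and 26.6 CPM against 34.1 and 28.5 CPM on D12, and at 42.4 and 37.8 CPM against 30.3 and 33.5 CPM on D70. UAP1 was thus above its controls with TMG on D0 and D12 and below them on D30 and D70. The TMG effect on UAP1 differed from that on D12 by -0.64 ± 0.25 on D30 and by -0.62 ± 0.25 on D70, with an edgeR adjusted p of 1 for both.

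GFPT2, the second rate-limiting enzyme, had its highest level in undifferentiated stem cells. It was at 119 and 135 CPM in D0 controls and 102 and 104 CPM with TMG. All 4 D12 libraries lay between 14.2 and 16 CPM. The D30 controls had 16.9 and 20.0 CPM and the TMG-treated libraries 22.8 and 26.7 CPM, and D70 had 26.9 and 32.1 CPM in controls against 20.8 and 19.6 CPM with TMG. The TMG-treated libraries were therefore below the controls on D0 and D70 and above them on D30. The log2 fold change was -0.31 ± 0.16 on D0, 0.42 ± 0.16 on D30 and -0.55 ± 0.16 on D70, with edgeR adjusted p of 1, 0.349 and 0.858. The D30 effect differed from that on D0 by 0.73 ± 0.23, with an unadjusted p of 0.00888 and an edgeR adjusted p of 0.976. The difference between the D70 and D30 effects was -0.97 ± 0.23, with an unadjusted p of 0.00157 and an edgeR adjusted p of 1. Across the 6 pairs of days, 0 members passed for a change of the TMG effect in edgeR or in DESeq2, and 0% of all genes passed in edgeR. Of the genes it gave an adjusted p, DESeq2 called 0.0124% for D12 against D0, 0.153% for D30 against D0, 0.0247% for D70 against D0, 0.0962% for D30 against D12, 0.0463% for D70 against D12 and 0.0866% for D70 against D30. At an unadjusted p under 0.05 there were 3 members for D30 against D0 beside 4.94% of all genes, 2 for D70 against D12 beside 2.41%, 1 for D30 against D12 beside 3.41% and 1 for D70 against D30 beside 4.03%, each of them GFPT1, GFPT2 or UAP1. For D12 against D0 and D70 against D0 there were 0, beside 1.07% and 2.19%.

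GNPNAT1, the acetyltransferase of the pathway, had a higher mean with TMG on every day. It was at 56.2 and 38.4 CPM in D0 controls and 55.2 and 54.2 CPM with TMG, and at 21.4 and 20.3 CPM against 22.4 and 26.3 CPM on D12. On D30 the values were 18.2 and 15.4 CPM in controls and 21.9 and 27.4 CPM with TMG, a log2 fold change of 0.55 ± 0.26 with an edgeR adjusted p of 0.439. On D70 they were 18.5 and 29.2 CPM against 22.2 and 28.9 CPM. The arms were apart on D12 and D30 and overlapped on D0 and D70. Leaving out 1 library turned the sign on D0 (-0.03 without control replicate 2) and on D70 (-0.19 without control replicate 1).

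NAGK, the kinase that recovers GlcNAc from breakdown of sugars, differed by at most 0.29 on the log2 scale between the arms up to D30 and stood out in 1 D70 library. It was at 27.7 and 28.2 CPM in D0 controls and 28.8 and 31.1 CPM with TMG, at 41.3 and 51.4 CPM against 57.6 and 56.0 CPM on D12, and at 50.5 and 48.2 CPM against 46.0 and 60.8 CPM on D30. The D70 controls had 49.1 and 75.1 CPM and the TMG-treated libraries 59.4 and 148 CPM. The 2 D70 libraries with the most mesenchyme marker RNA, replicate 2 of each arm, were also the 2 with the most NAGK. The D70 log2 fold change was 0.74 ± 0.35, with an edgeR adjusted p of 0.902. It was -0.06 without TMG replicate 2, and 1.25 with an edgeR adjusted p of 0.0315 without TMG replicate 1, so this difference rested on the library low in neuron markers.

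AMDHD2, the deacetylase that takes GlcNAc 6-phosphate out of the pathway, had the largest standard errors of the members, from 0.36 to 0.37 over the days. It was at 38.7 and 43.6 CPM in D0 controls and 32.9 and 36.4 CPM with TMG, and at 22.3 and 42.0 CPM against 24.3 and 28.0 CPM on D12. On D30 it was at 8.46 and 10.3 CPM in controls and 8.35 and 18.9 CPM with TMG, and on D70 at 15 and 17.7 CPM against 21.1 and 26.5 CPM. The arms were apart on D0 and D70, in opposite directions. The D30 log2 fold change was 0.53 ± 0.37 and became -0.17 without TMG replicate 2, and on D70 it was 0.54 ± 0.37 with an edgeR adjusted p of 0.945.

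**Figure D3:**
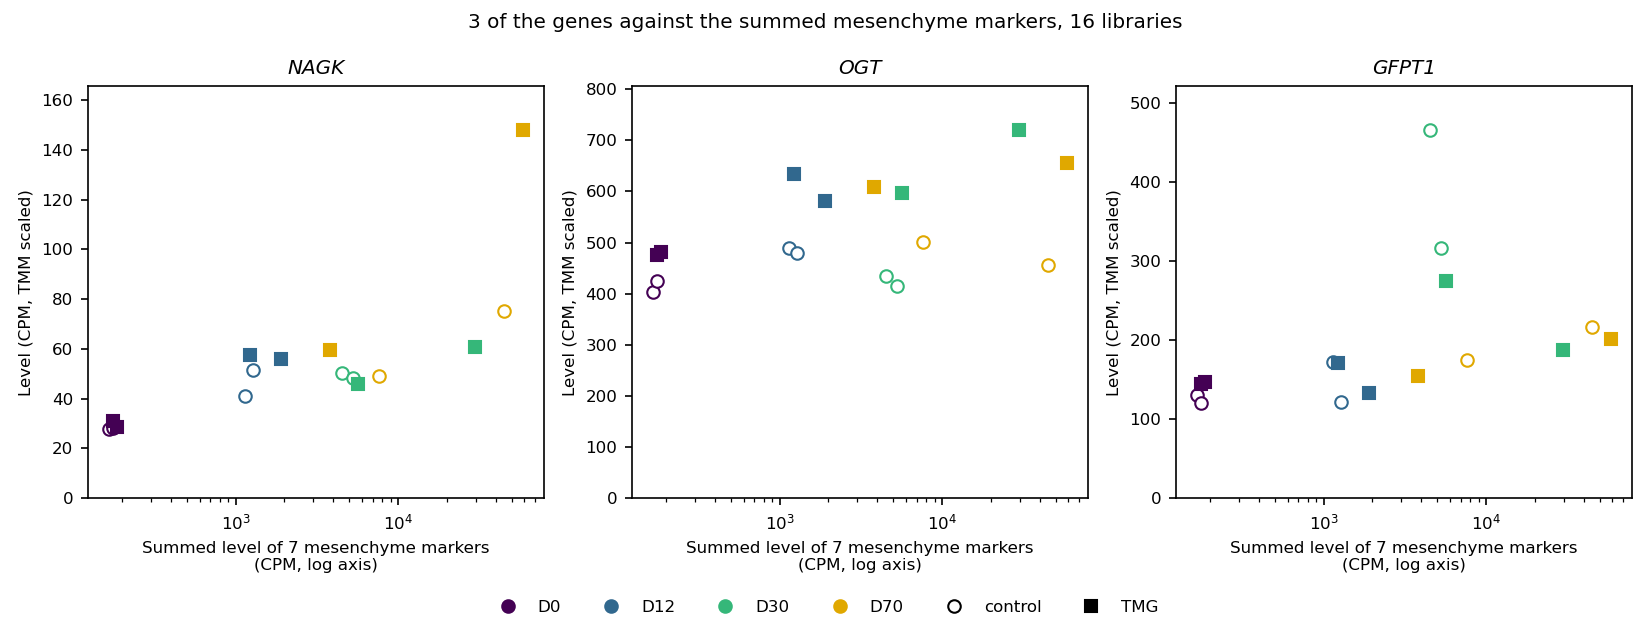
Level of NAGK, OGT and GFPT1 (CPM, vertical axes from 0) against the summed level of 7 mesenchyme markers (CPM, log axis) in 16 libraries; colours mark the day, open circles control and filled squares TMG-treated libraries. The highest NAGK level, 148 CPM, is in the library with the highest marker sum, 59001 CPM. The highest OGT level, 719.8 CPM, is in a D30 TMG-treated library with a sum of 29558 CPM. The part of culture makeup in these levels was not tested.

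In control cells, members passed edgeR's test between days, where none had passed between the arms in edgeR. From D0 to D12, 3 of the 10 members changed, all lower, beside 16.7% of all genes in either direction and 9.71% lower. From D0 to D30 it was 7 members, 3 higher and 4 lower, beside 30.6% of all genes (14% higher and 16.7% lower), and from D0 to D70 it was 6, 2 higher and 4 lower, beside 29.8% (15% higher and 14.7% lower). Between D12 and D30 it was 3 members beside 3.6%, and between D12 and D70 it was 2 beside 11.1%. Between D30 and D70, 0 members passed in edgeR, with 4 at an unadjusted p under 0.05 beside 18.4% of all genes, and 0.384% of all genes passed in edgeR. DESeq2 called 3 members (GFPT1, GFPT2 and PGM3) beside 8.17% of the genes it gave an adjusted p. The 6 comparisons share control libraries and are not independent.

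**Figure D4:**
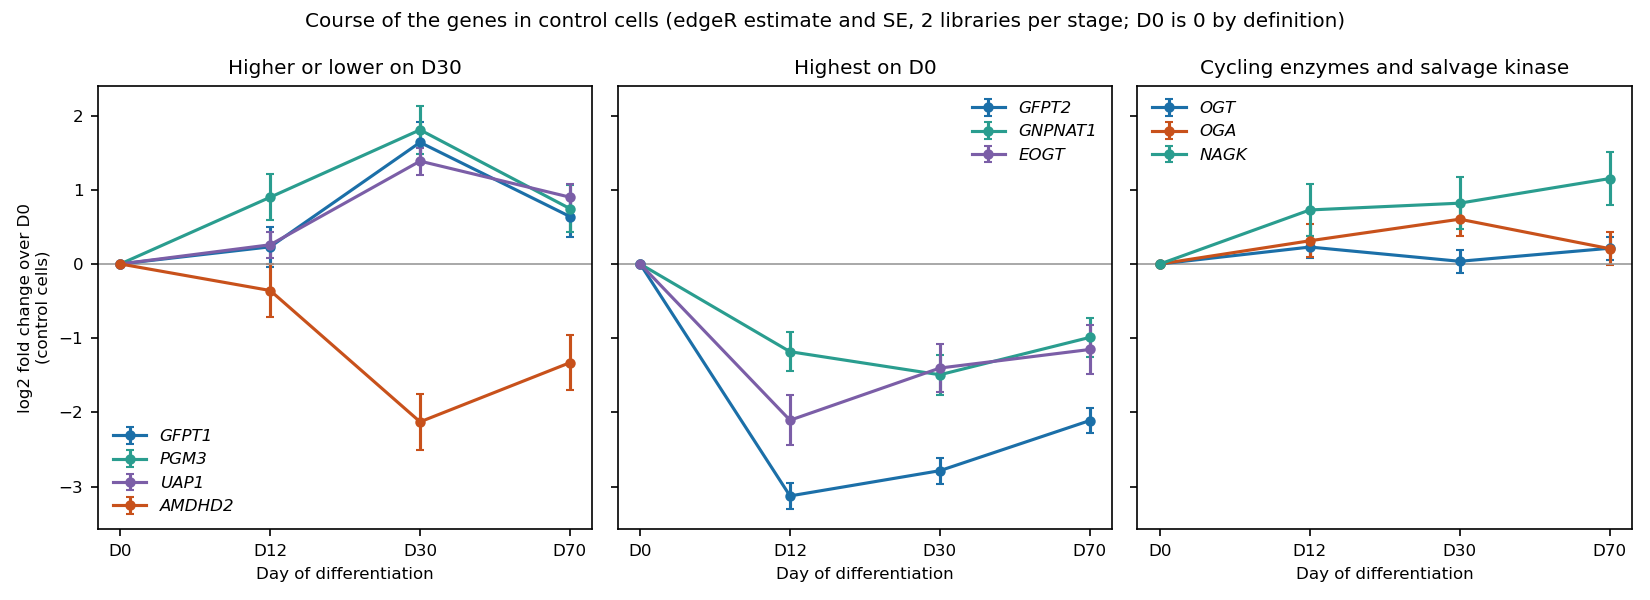
Log2 fold change over D0 in control cells (vertical axis) by day for the 10 genes, as edgeR estimates from 2 control libraries a day. Bars are SEs derived from the F-test fitted to all 16 libraries, and D0 is 0 by definition. GFPT1, PGM3 and UAP1 peak on D30 where AMDHD2 is lowest, GFPT2, GNPNAT1 and EOGT are lower after D0, and OGT stays within 0.23 of its D0 level.

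GFPT2, GNPNAT1 and EOGT fell as stem cells entered neural differentiation. GFPT2 was 8.72-fold lower on D12 than on D0 (log2 fold change -3.12 ± 0.18, edgeR adjusted p 1.67e-05), and it remained lower on D30 (-2.78 ± 0.17) and D70 (-2.11 ± 0.17). GNPNAT1 was 2.27-fold lower on D12 (-1.18 ± 0.26, edgeR adjusted p 0.0139) and EOGT 4.3-fold lower (-2.11 ± 0.33, edgeR adjusted p 0.00319). The GNPNAT1 call held only without control replicate 2 of D0 among the 4 omissions, and those of GFPT2 and EOGT held under each. On D30 GNPNAT1 was at -1.49 ± 0.27 and EOGT at -1.40 ± 0.33 relative to D0, with edgeR adjusted p of 0.00236 and 0.00902, and the EOGT call held only without control replicate 1 of D0. After D12, GFPT2 rose again by D70 (1.01 ± 0.16, edgeR adjusted p 0.00557). That rise failed the threshold when either D12 control was left out, and the rise of UAP1 between the same days (0.64 ± 0.18, edgeR adjusted p 0.0429) failed under each omission. Over the same days the summed level of 4 stem cell markers went from 2448 and 2561 CPM to 503 and 569 CPM on D12 and to 2.57 and 1.45 CPM on D70.

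GFPT1, PGM3 and UAP1 rose together by D30. GFPT1 was 3.11-fold higher on D30 than on D0 (log2 fold change 1.64 ± 0.27, edgeR adjusted p 0.00169), PGM3 3.5-fold (1.81 ± 0.32, edgeR adjusted p 0.00223) and UAP1 2.61-fold (1.39 ± 0.18, edgeR adjusted p 0.00048). AMDHD2, the enzyme that works against the pathway, was 4.37-fold lower at the same point (-2.13 ± 0.38, edgeR adjusted p 0.00234). All 4 calls held when any 1 of the D0 and D30 control libraries was left out. From D12 to D30, GFPT1 (1.41 ± 0.27) and UAP1 (1.13 ± 0.18) rose and AMDHD2 fell (-1.77 ± 0.38), with edgeR adjusted p of 0.0223, 0.0125 and 0.031. These calls did not hold under every omission of a D12 or D30 control, each of which leaves 1 library on that day. The log2 fold change then ran from 1.11 to 1.70 for GFPT1 and from 0.93 to 1.30 for UAP1. For AMDHD2 it ran from -2.14 to -1.24.

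By D70 fewer of these differences passed. UAP1 was still higher than on D0 (0.90 ± 0.18, edgeR adjusted p 0.00434), while GFPT1 (0.64 ± 0.27) and PGM3 (0.75 ± 0.31) had edgeR adjusted p of 0.0952 and 0.0933. AMDHD2 was lower (-1.33 ± 0.37, edgeR adjusted p 0.0209) and NAGK higher (1.15 ± 0.35, edgeR adjusted p 0.0314). GFPT2 and UAP1 passed for D70 against D0 whichever control library was left out, whereas AMDHD2 and EOGT failed under each omission, GNPNAT1 without control replicate 1 of either day, and NAGK under each except that of D70 control replicate 1.

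OGT and OGA did not pass in edgeR between any 2 days in control cells with all libraries. OGT means ran from 414 CPM on D0 through 424 CPM on D30 and 479 CPM on D70 to 484 CPM on D12, and 0 of the 3 steps in that order passed the test. The D30 and D70 controls did not overlap, with a log2 fold change of 0.18 ± 0.15 and an edgeR adjusted p of 0.565, and the other neighbouring days overlapped. OGA means ran from 264 CPM on D0 to 401 CPM on D30, and the D30 difference from D0 was 0.60 ± 0.23 with an edgeR adjusted p of 0.0637 (0.0288 in DESeq2). This OGA difference was 0.35 without control replicate 1 of D0 and 0.99 without control replicate 2 of D0. Per kilobase of the canonical transcript, OGT (76.1 to 89.1 CPM per kb) and OGA (51.0 to 77.5 CPM per kb) were the most abundant members in control cells on every day.

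The 2 rate-limiting enzymes exchanged places. On D0, GFPT2 stood at 42.0 CPM per kb in control cells and GFPT1 at 14.5 CPM per kb. On D12 these levels were 4.81 and 17.0 CPM per kb, on D30 they were 6.08 and 45.2 CPM per kb, and on D70 they were 9.72 and 22.6 CPM per kb. In counts, the log2 ratio of GFPT1 to GFPT2 was 0.13 and -0.16 in D0 controls and 0.52 and 0.48 with TMG. It was 3.53 and 3.11 on D12 in controls against 3.56 and 3.05 with TMG, and 2.71 and 2.75 on D70 against 2.89 and 3.36. On D30 the controls had 4.78 and 3.99 and the TMG-treated libraries 3.59 and 2.81, so both arms favoured GFPT1 after D0 and the D30 ratio was lower with TMG in both replicates. These ratios are descriptions without a test.

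**Figure D5:**
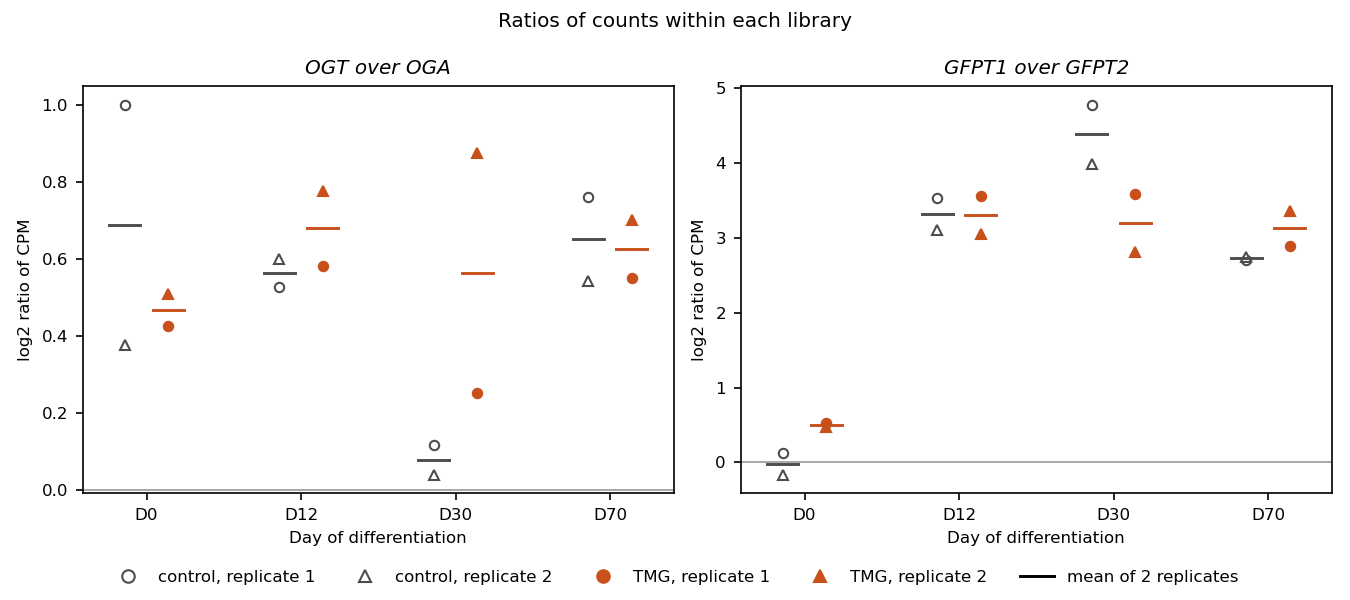
Log2 ratio of CPM within each library (vertical axes) for OGT over OGA and for GFPT1 over GFPT2, by day; open symbols are control and filled symbols TMG-treated libraries, bars are means of 2 replicates. The GFPT1 to GFPT2 ratio is near 0 in D0 controls and 4.78 and 3.99 in D30 controls, and the OGT to OGA ratio is lowest in D30 controls at 0.12 and 0.04.

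Promoters are shown for GFPT1 and PGM3, which with UAP1 rose by D30 in control cells, and for AMDHD2, which fell, as the 200 bases before the start site in the RefSeq table (build GRCh38.p14), which matched 9 of the 10 members and did not match EOGT. Capitals mark the E-box CACGTG, bound by basic helix-loop-helix factors, and CCACG, the short core of the ER stress element, searched on both strands (CGTGG on the strand shown). The motifs overlap where a G follows an E-box.
GFPT1, chr2:69387228-69387427, minus strand: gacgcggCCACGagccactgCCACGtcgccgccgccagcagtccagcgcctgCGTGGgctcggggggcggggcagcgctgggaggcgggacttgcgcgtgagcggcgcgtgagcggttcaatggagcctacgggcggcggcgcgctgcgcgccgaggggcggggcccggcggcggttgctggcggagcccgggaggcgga
PGM3, chr6:83193266-83193465, minus strand: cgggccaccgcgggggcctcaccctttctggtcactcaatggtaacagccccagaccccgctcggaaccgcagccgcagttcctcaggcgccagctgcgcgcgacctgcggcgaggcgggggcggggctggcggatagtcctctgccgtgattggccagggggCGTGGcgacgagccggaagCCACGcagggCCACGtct
AMDHD2, chr16:2520171-2520370, plus strand: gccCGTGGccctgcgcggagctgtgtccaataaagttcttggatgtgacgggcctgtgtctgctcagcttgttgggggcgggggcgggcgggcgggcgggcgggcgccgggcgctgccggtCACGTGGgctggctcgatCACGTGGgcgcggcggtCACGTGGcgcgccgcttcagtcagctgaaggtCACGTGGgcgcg
GFPT1 held 3 copies of CCACG, PGM3 held 3 in the window shown and 0 in that of its other start site, and UAP1 held 1 in 2 of its 3 windows. AMDHD2 held 5, of which 4 overlap an E-box, OGT held 1, and NAGK held 1 in 1 of its 2 windows. CCACG was present in 28.8% of the 35116 windows of the same 200 bases in the table, so its presence is common. AMDHD2 was the only matched member with an E-box and held 4, starting 79, 61, 44 and 12 bases before the start site. An E-box was present in 5.49% of windows and 4 or more in 5 of 35116, or 0.0142%. The longer forms TGACGTGG (0.515% of windows) and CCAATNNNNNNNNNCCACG (0.0626%) were in no member's window. A match describes letters only and says nothing of which factor binds.

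On GRCh37, the build of the counts, GFPT1 lies at chr2:69546912-69614382 on the minus strand, GFPT2 at chr5:179727698-179780336 on the minus strand, OGT at chrX:70752937-70795742 on the plus strand and OGA at chr10:103544200-103578222 on the minus strand. PGM3, at chr6:83857043-83903655, shares 1546 exon bases with DOP1A on the opposite strand, which had 559 to 3285 counts, and AMDHD2, at chr16:2570358-2581423, shares 1383 with CEMP1, which had 31 to 217. Whether counting used strand is not given in the sources used here, so reads from the shared bases cannot be told apart.

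Genes around the pathway were read as 39 neighbours in 5 lists: entry of glucose, hexosamine and sialic acid enzymes, users of UDP-GlcNAc, lysosomal enzymes and protein partners of OGT. Of the 39, 0 passed in edgeR in any TMG comparison. At an unadjusted p under 0.05 there were 0 on each of D0 and D12, then 3 on D30 (1 higher and 2 lower) and 4 on D70 (2 higher and 2 lower), beside 12% and 5.49% of all genes on the last 2 days. DESeq2 called 1 of the 39, TET3, on D30 and in the mean over the days, and 0 on D0, D12 or D70. It called 3.04% of the genes it gave an adjusted p on D30 and 2.41% for the mean. UAP1L1, a relative of UAP1, was at 9.87 and 14.0 CPM in D30 controls and 2.82 and 5.87 CPM with TMG, a log2 fold change of -1.46 ± 0.60 with an edgeR adjusted p of 0.373. GPI, which supplies fructose 6-phosphate, was at 379 and 493 CPM in D70 controls and 265 and 179 CPM with TMG, a log2 fold change of -0.97 ± 0.32 with an edgeR adjusted p of 0.878. The hexokinases HK1 and HK2 had log2 fold changes of -0.28 ± 0.30 and -1.19 ± 0.67 on D70, with edgeR adjusted p of 0.947 and 0.909. GNPDA1, a glucosamine 6-phosphate deaminase, averaged -0.27 ± 0.11 over days with an edgeR adjusted p of 0.374. HEXA, a lysosomal enzyme that TMG spares relative to OGA, had log2 fold changes between -0.28 and 0.07 over the 4 days.

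Of the 10 hexosamine and sialic acid neighbours, 7, 5, 1 and 2 had a higher mean with TMG in order of day, with median log2 fold changes of 0.08, -0.04, -0.26 and -0.15. For the 3 glucose entry genes it was 3, 1, 1 and 0, and for the 15 users of UDP-GlcNAc 9, 9, 7 and 7. The median log2 fold change of all genes was -0.002, 0.003, 0.01 and -0.01, so higher and lower means were about equally common among them. These direction counts are descriptions without a test.

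The 9 protein partners of OGT had higher means with TMG for 6, 8, 8 and 6 of the 9 in order of day. Their median log2 fold changes were 0.05, 0.15, 0.10 and 0.22, beside -0.002, 0.003, 0.01 and -0.01 for all genes. Whether the partners differ from all genes in direction was not tested. HCFC1, the cell cycle regulator that OGT binds and cleaves, was at 205 and 264 CPM in D30 controls and 229.8 and 272 CPM with TMG. On D70 its mean was 197 CPM in controls (SD 21.7) and 272 CPM with TMG (SD 14.4). Averaged over days, its log2 fold change was 0.19 ± 0.09 with an edgeR adjusted p of 0.458. TET3, a DNA demethylation enzyme that brings OGT to chromatin, was singled out after its values were seen. It was at 80.5 and 90.2 CPM in D0 controls and 91.9 and 97.6 CPM with TMG, at 68.1 and 75.3 CPM against 101 and 107 CPM on D12, at 43.7 and 62.6 CPM against 93.1 and 152 CPM on D30, and at 74.7 and 109 CPM against 118 and 195 CPM on D70. Like OGT, it was above both controls in both TMG-treated libraries on every day, and of the 39 neighbours the same was true of ALG14. The average log2 fold change was 0.66 ± 0.15, with an edgeR adjusted p of 0.179.

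Between control days the neighbours changed as well, with 12, 16 and 15 of the 39 passing on D12, D30 and D70 against D0, beside 16.7%, 30.6% and 29.8% of all genes. Among the entry genes, HK1 fell by 1.24 on the log2 scale from D0 to D12 (SE 0.30, edgeR adjusted p 0.0205). GNPDA2, which turns glucosamine 6-phosphate back to fructose 6-phosphate, rose by 1.64 ± 0.23 from D0 to D30 (edgeR adjusted p 0.000699). HEXA rose by 1.09 ± 0.20 and HCFC1 fell by 1.17 (SE 0.19) from D0 to D70, with edgeR adjusted p of 0.00281 and 0.00152.

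The genes whose log2 CPM followed a member most closely over the 16 libraries were ranked by Pearson's r among 17372 named genes with a mean of at least 1 CPM, as a description without a test, since the libraries of a day share their stage. For OGT they were BTBD7 (0.888), CHRM2 (0.881) and YAP1 (0.871), and for OGA they were GAPDHP21 (0.838), KBTBD2 (0.831) and TNFAIP3 (0.825). For GFPT2 they were GAL (0.977), PHC1 (0.976) and CR2 (0.972).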

How the data were processed

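Total RNA of H9 cells was depleted of ribosomal RNA and sequenced in 16 libraries, 2 for each of 4 days in control and TMG-treated cells. Per the labels and the study's methods, alignment by the authors was with bowtie2 against hg19, and they deposited estimated counts from RSEM 1.2.12 per Ensembl gene, not normalized. The deposited values are whole numbers and were used as such. Genes were kept by filterByExpr (minimum count 10, minimum total 15). TMG against control, its average over days, its change between days, and days within control cells were tested in edgeR 4.0.16 (TMM, quasi-likelihood F-test, 1 mean per group, 8 residual degrees of freedom, R 4.3.3), with Benjamini-Hochberg adjustment over 24249 genes in each comparison. The SE, also given after ±, was derived as the absolute log2 fold change over the square root of the F statistic. It rests on a spread estimated over all 16 libraries and moderated across genes. CPM are TMM scaled, and correlations used log2 CPM with a prior count of 2. Alternatives were DESeq2 1.42.0, RLE scaling, no filter, a replicate block, only the compared libraries, and leaving out each library. Leaving out a library leaves 1 in its group, so the spread then comes from the other groups. The tests were run on simulated data first. The members and lists were chosen with earlier results of these data known. All 10 members are named, with neighbours past the threshold in a TMG comparison, 9 fixed neighbours (1 is not reported here), and the 3 genes most like OGT, OGA and GFPT2. Counting error was small beside the spread between replicates, where chi-square per degree of freedom was 25.5 to 158.8. That value sets separate cultures against counting error only. Annotation was GENCODE on GRCh37.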

Additional observations from a re-analysis of the deposited data

How the results depend on the processing

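Of the TMG comparisons, the number of members called stayed at 0 on D0 and D12 under every alternative. On D30 it was 1 under DESeq2 (OGT) and 1 with the replicate block (GFPT1, edgeR adjusted p 0.0432), and on D70 it was 0 to 1 when a library was left out (NAGK, without TMG replicate 1). For the average over days it was 1 under DESeq2 (OGT) and 0 to 1 with a library left out (OGT, without D70 TMG replicate 1). The replicate block changed no other call, and replicate differences correlated between the arms at 0.0453, 0.367, 0.223 and 0.607 in order of day. With 2 pairs a day, and no statement in the labels of what a replicate number shares, the libraries were not treated as paired. In control cells, D12 against D0 gave 5 members with only the libraries of these days. D70 against D0 gave 2 to 3 with a library left out, D30 against D12 gave 0 to 2, and D70 against D12 gave 0 to 1, or 1 without the filter and 0 with only the libraries of these days. D70 against D30 gave 3 under DESeq2. The cause of these differences was not tested. Except for DESeq2, the share of all genes called under each alternative is not given here. The counts therefore cannot be read as particular to the members. Changes of the TMG effect stayed at 0 throughout. Leaving out 1 library reversed the sign of some differences, none of which had passed. The ranges of log2 fold change were, for TMG against control, GNPNAT1 -0.033 to 0.54 on D0, GFPT1 -0.18 to 0.31, GFPT2 -0.0091 to 0.14, PGM3 -0.49 to 0.19 and AMDHD2 -0.69 to 0.23 on D12, OGA -0.033 to 0.32, NAGK -0.10 to 0.30 and AMDHD2 -0.17 to 1.00 on D30, GFPT1 -0.34 to 0.036, GNPNAT1 -0.19 to 0.48 and NAGK -0.059 to 1.25 on D70 and AMDHD2 -0.046 to 0.26 for the average. In control cells they were GFPT1 -0.016 to 0.46 and AMDHD2 -0.89 to 0.054 for D12 against D0, OGA -0.074 to 0.60 for D70 against D0, NAGK -0.038 to 0.26 for D30 against D12, OGT -0.088 to 0.037, GNPNAT1 -0.19 to 0.48 and PGM3 -0.39 to 0.12 for D70 against D12 and NAGK -0.042 to 0.60 for D70 against D30. OGT on D70 against D12 was 0.00198 under DESeq2 and 0.0019 under RLE scaling, against -0.02. Precision is limited by 2 replicates a group. AMDHD2 and EOGT had counts below 100 in the sparsest libraries, and the effect of this on precision was not tested.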
